A study of Homo sapiens with 9 samples.

Results

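Peaks at 8 genes for small structured RNAs were examined in 5 deposited peak lists from renal carcinoma cells: SNORD3A, RNU11, RNU1-1, RNU2-2P, RN7SK, RMRP, RPPH1 and RN7SL1. Members were all peaks with an edge within 5 kb of 1 hg19 coordinate per gene, and 39 of the 52875 peaks qualified, 9 in tagged 786-O, 10 in tagged A498, 7 in MYC, 8 in parental 786-O and 5 in parental A498. The genes were chosen by their scores and ranks in these lists, above all in the parental ones, so the ranks below are a description and carry no test. Of the 8 genes, 5 had a peak in both parental lists, which does not test their label as GFP background. RN7SK, RMRP and RN7SL1 had no peak in either parental list, where signal below the calling threshold cannot be seen.

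The lists come from chromatin immunoprecipitation and sequencing (ChIP-seq) in 786-O and A498, established lines of clear cell renal cell carcinoma. The tagged cells carried an eGFP knock in at ZNF395, a zinc finger protein gene, made with a guide plasmid and a donor plasmid, and were precipitated with a GFP antibody (AbCAM ab290); the labels do not say whether they were single clones. MYC, a transcription factor of growth genes, was precipitated from parental 786-O with a c-Myc antibody (Santa Cruz sc-764). Parental 786-O and parental A498 were not tagged and were precipitated with the same GFP antibody, and their GFP peaks stand for the background of the antibody. The libraries titled A498 give 786-O as the cell line in another label field, and the MYC library gives P300 as its target; here they are called by their titles. With 1 library per group there was no replicate to test against, and no p-value is given.

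The RNAs are short, folded and abundant, and work inside ribonucleoproteins. SNORD3A makes U3, which guides early cuts of the ribosomal RNA precursor. RNU1-1 and RNU2-2P make U1 and U2 RNA of the major spliceosome, which pair with the 5′ splice site and the branch point of introns, and RNU11 makes the U1 counterpart of the minor spliceosome. RN7SK holds back the elongation factor P-TEFb, RMRP and RPPH1 are the RNAs of the RNase MRP and RNase P enzymes, and RN7SL1 is the RNA of the signal recognition particle. The first 4 genes are transcribed by RNA polymerase II and the other 4 by RNA polymerase III, and the promoters of many such genes share upstream elements.

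The lists held 20034 peaks in tagged 786-O, 7718 in tagged A498, 20199 in MYC, 3361 in parental 786-O and 1563 in parental A498. Peaks were ranked within their list by the authors' score, which starts just above 2 in each list. Ranks are given also as a top percent, the share of the list at or above the peak, with exact (Clopper-Pearson) 95% binomial intervals. The intervals treat the rank as a count out of the list and do not measure how it would vary in a repeat library. Lists differ in length and their depth is unknown, and a top percent that differs between lists is not a change in binding. The MYC and parental 786-O lists name 1 common control library, and their values are given side by side only.

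All 8 genes had a peak in tagged 786-O, 6 in tagged A498, 6 in MYC and 5 in each parental list. The best peak per gene lay in the upper 5% of the list for 5 genes in tagged 786-O, 4 in tagged A498, none in MYC, 5 in parental 786-O and 4 in parental A498, against 5%, 4.99%, 5%, 5% and 4.99% of all peaks in these lists. The polymerase II genes made up most of these. All 4 were in the upper 5% of tagged 786-O and of both parental lists, and 3 were in tagged A498. Of the 4 polymerase III genes, RMRP was in the upper 5% of both tagged lists, RPPH1 was in the upper 5% of parental 786-O, and none was in that of parental A498. The division by polymerase was made with these values known.

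**Figure D1:**
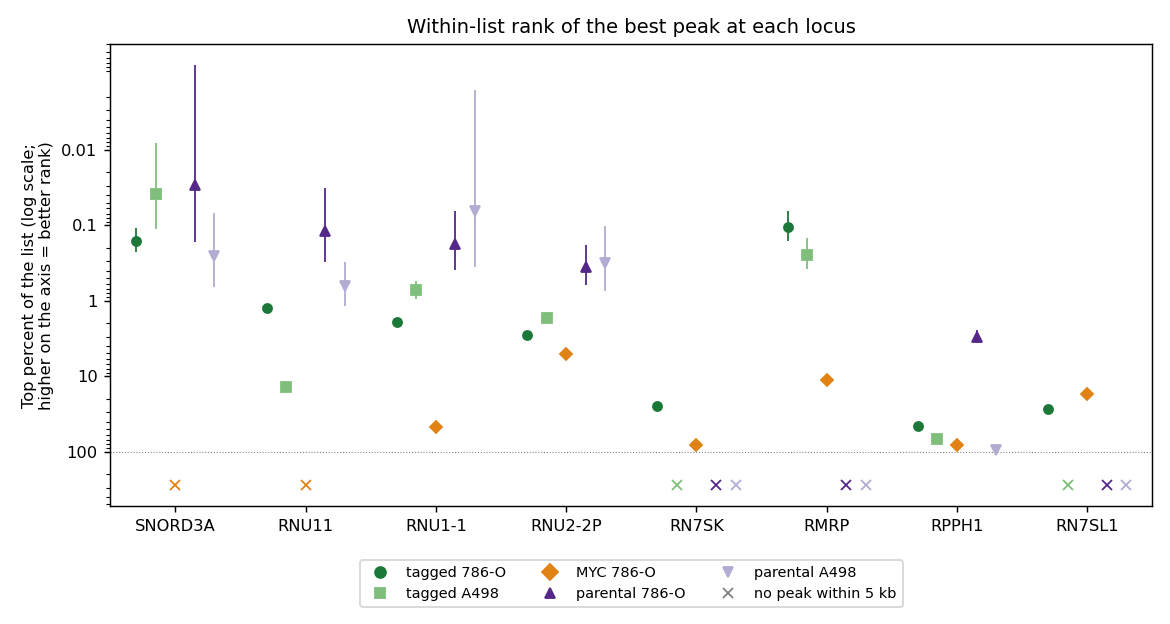
Top percent of the best-ranked peak within 5 kb of each gene (log scale, better ranks higher) in the 5 lists, 1 library each; bars are exact 95% binomial intervals and crosses mark genes with no peak. SNORD3A, RNU11, RNU1-1 and RNU2-2P are within the upper 1% of both parental lists, whereas RMRP is within the upper 1% of both tagged lists and has no parental peak.

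SNORD3A, the U3 gene, held rank 32 of tagged 786-O (top 0.160%, interval 0.109 to 0.225) and rank 3 of tagged A498 (0.0389%, 0.00802 to 0.114). It held rank 1 of parental 786-O (0.0298%, 0.000753 to 0.166) and rank 4 of parental A498 (0.256%, 0.0698 to 0.654). No MYC peak lay within 5 kb, and the nearest was 174.2 kb away. SNORD3A was thus near the head of all 4 GFP lists, with and without the tag. Its peaks covered the RNA, at chr17:19091226-19091571 in tagged 786-O, chr17:19091231-19091703 in tagged A498, chr17:19091278-19091579 in parental 786-O and chr17:19091271-19091592 in parental A498. The midpoints of the 2 parental peaks were 3.0 bp apart. RefSeq lists another U3 gene, SNORD3C, as its neighbour; reads of such near-identical copies can be placed on either, and the sources used here do not say how the authors' mapping quality step treated them.

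RNU11, the U11 gene, had rank 250 in tagged 786-O (top 1.25%, 1.10 to 1.41) and rank 1072 in tagged A498 (13.9%, 13.1 to 14.7). Its ranks were 4 in parental 786-O (0.119%, 0.0324 to 0.304) and 10 in parental A498 (0.640%, 0.307 to 1.17). Tagged A498 was therefore the only GFP list in which RNU11 lay outside the upper 5%. The peak there was also short, 250 bp at chr1:28975052-28975301, against 725 bp in parental A498, of which it covered 34.5%. In 786-O the tagged peak was 1103 bp wide and contained the whole parental peak of 890 bp, chr1:28975010-28975899. No MYC peak was within the window, but one of MYC rank 187 lay just outside it, at 5042 bp, the peak nearest to the 5 kb limit on the outside in any list. On the inside the farthest member was a tagged A498 peak 1959 bp from the RNU2-2P coordinate. RefSeq lists TAF12 and TAF12-DT as neighbours of RNU11.

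RNU1-1, a U1 gene, had rank 389 in tagged 786-O (top 1.94%, 1.76 to 2.14) and rank 56 in tagged A498 (0.726%, 0.549 to 0.941). Its MYC peak was weak within its list, with rank 9594 (47.5%). The gene ranked 6 in parental 786-O (0.179%, 0.0655 to 0.388) and 1 in parental A498 (0.0640%, 0.00162 to 0.356). It was the highest peak of all in parental A498, where it spanned 1705 bp, chr1:16839158-16840862. Around the same stretch parental 786-O had 3 separate peaks of 936, 306 and 201 bp with ranks 6, 437 and 704, and tagged A498 had peaks of 1406 and 178 bp with ranks 56 and 1179. Tagged 786-O had 1 peak there, of 1467 bp at chr1:16839473-16840939, which did not reach the outermost of the parental 786-O and tagged A498 peaks. Other U1 copies of near-identical sequence exist, and the caution given for U3 holds here too.

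RNU2-2P, a U2 gene that RefSeq now names RNU2-2, had rank 570 in tagged 786-O (top 2.85%, 2.62 to 3.09) and rank 130 in tagged A498 (1.68%, 1.41 to 2.00). It ranked 12 in parental 786-O (0.357%, 0.185 to 0.623) and 5 in parental A498 (0.320%, 0.104 to 0.745). The parental A498 peak, chr11:62607568-62609368, was the widest best peak at any of the 8 genes, with 1801 bp. Tagged A498 had 4 separate peaks in the window, of 443, 443, 233 and 587 bp. The one of 233 bp lay outside the parental A498 peak, and the best covered 24.6% of it. MYC had 2 peaks. The one on the gene, at chr11:62608828-62609102, was weak (rank 13693, 67.8%). The stronger one (rank 1025, 5.08%) lay 1811 bp away at chr11:62606612-62607280, on the side where RefSeq places the starts of the neighbouring protein-coding gene WDR74.

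The peaks at the polymerase II genes lay over the RNA and beyond its 3′ end. Ends were set from the locus coordinate, taken as the lower end of the RNA, the RNA's length in RefSeq and the known direction of transcription, so they are approximate. All 16 best GFP peaks at these 4 genes covered the whole RNA, and they began 51 to 159 bp before its 5′ end. At RNU11, RNU1-1 and RNU2-2P they reached 55 to 1523 bp past the 3′ end, and in 11 of 12 cases farther than they reached before the 5′ end. The exception was RNU11 in tagged A498, with 55 bp past the 3′ end and 60 bp before the 5′ end. At RNU1-1 the reach past the 3′ end was 1144 bp in tagged 786-O and 1161 bp in tagged A498, against 646 bp in parental 786-O and 1459 bp in parental A498. U3 differed from these, with 26 bp in tagged 786-O, 158 bp in tagged A498, 34 bp in parental 786-O and 47 bp in parental A498.

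**Figure D2:**
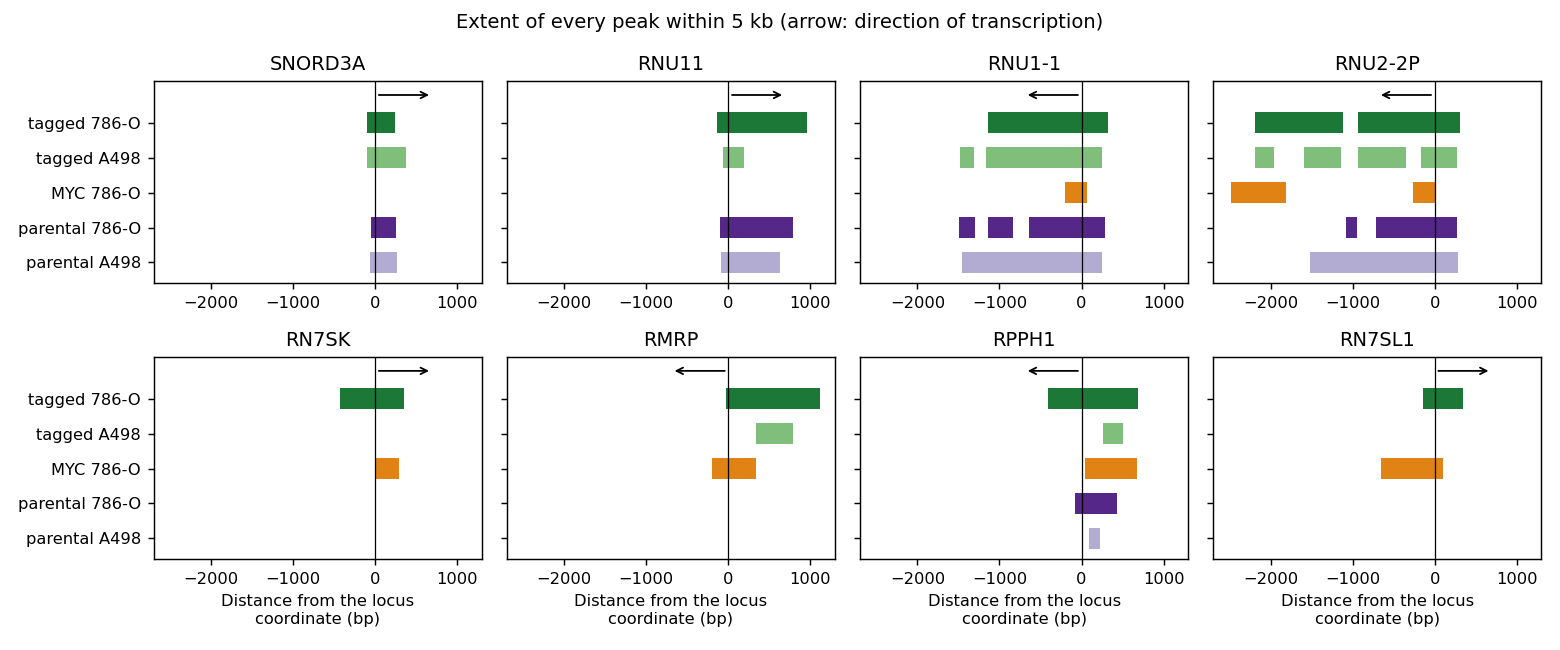
Extent of every peak within 5 kb, as distance in bp from the locus coordinate (vertical line, lower end of the gene), in each list; arrows give the direction of transcription. Peaks at RNU11, RNU1-1 and RNU2-2P extend along the direction of transcription, up to 1523 bp past the 3′ end of RNU2-2P in parental A498. At RMRP, where the line marks the 3′ end, the tagged peaks extend mainly before the 5′ end. The tagged 786-O peak there also covers the whole RNA.

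RMRP, the RNase MRP gene, had high ranks in both tagged lists and no parental peak. It held rank 21 in tagged 786-O (top 0.105%, 0.0649 to 0.160) and rank 19 in tagged A498 (0.246%, 0.148 to 0.384), and rank 2241 in MYC (11.1%, 10.7 to 11.5). The nearest parental 786-O peak was 255.9 kb away and the nearest parental A498 peak 256.2 kb away. In tagged 786-O it ranked above SNORD3A, the highest parental 786-O site, though the intervals of the 2 overlap. A peak below the calling threshold of the parental libraries cannot be seen in these lists. The tagged 786-O peak, chr9:35657717-35658859, reached 842 bp before the 5′ end of the RNA and 31 bp past its 3′ end, and 23.6% of it lay on the RNA. The tagged A498 peak, chr9:35658083-35658534, did not touch the RNA and began 66 bp upstream of its 5′ end. The MYC peak, chr9:35657549-35658078, covered the RNA and ended 4 bp short of the tagged A498 peak. The midpoints of the 2 tagged peaks were 20.5 bp apart, against 474.5 bp between tagged 786-O and MYC.

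RPPH1 was the only polymerase III gene with parental peaks, and its ranks were spread widely. It held rank 9117 in tagged 786-O (top 45.5%), rank 5212 in tagged A498 (67.5%) and rank 16447 in MYC (81.4%). In parental 786-O it held rank 102 (3.03%, 2.48 to 3.67), and in parental A498 rank 1468 (93.9%, 92.6 to 95.0), near the end of the list. Parental 786-O was the only list in which RPPH1 stood in the upper 5%. In parental A498 the peak was 139 bp wide, at chr14:20811320-20811458, and lay wholly on the RNA. The tagged A498 peak, chr14:20811496-20811738, missed it by 37 bp and reached 168 bp before the 5′ end. Tagged 786-O had a peak of 1096 bp that contained both the parental 786-O peak of 508 bp, chr14:20811153-20811660, and the MYC peak of 630 bp.

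RefSeq lists CCDC107, a coiled-coil protein gene, beside the 5′ end of RMRP, and PARP2, a DNA repair enzyme gene, beside that of RPPH1. Both are read away from the RNA gene, so their promoter windows hold the upstream elements of RMRP and RPPH1 as well. The tagged peaks ranked above under RMRP and RPPH1 cannot be told apart from peaks at these neighbouring promoters. These 2 windows are shown because the tagged peaks at RMRP and RPPH1 reach upstream of the RNAs. They are from RefSeq, GRCh38.p14, plus strand, while peaks are in hg19, and peaks were not laid on these letters. Capitals mark the octamer ATGCAAAT and TATAAA (in the RMRP window on the opposite strand, from which RMRP is read).
CCDC107 and RMRP, chr9:35658042-35658341: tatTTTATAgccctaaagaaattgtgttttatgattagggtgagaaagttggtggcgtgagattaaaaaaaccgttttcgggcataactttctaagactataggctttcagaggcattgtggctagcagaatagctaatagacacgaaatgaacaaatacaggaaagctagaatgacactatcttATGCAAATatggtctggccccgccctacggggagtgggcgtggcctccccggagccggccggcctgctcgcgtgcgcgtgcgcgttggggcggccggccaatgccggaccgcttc
PARP2 and RPPH1, chr14:20343385-20343684: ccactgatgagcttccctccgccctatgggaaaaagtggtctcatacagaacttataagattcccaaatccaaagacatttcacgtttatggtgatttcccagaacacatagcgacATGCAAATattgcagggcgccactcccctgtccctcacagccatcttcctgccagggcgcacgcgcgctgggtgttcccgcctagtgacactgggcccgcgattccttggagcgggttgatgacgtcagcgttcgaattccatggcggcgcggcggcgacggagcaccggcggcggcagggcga

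The patterns searched on both strands of 35116 RefSeq windows of the same length were the octamer, found in 1.77% of them, the TATA box as TATAAA or TATATA (13.7%), the E-box CACGTG (7.26%) and ACC followed after 7 or 8 bases by AAAG, written after the proximal element of small nuclear RNA genes (6.38%). The octamer was present in both windows, 65 bases before the start of CCDC107 and 134 bases before that of PARP2. TATAAA was found beside RMRP only. Neither window held the E-box or the proximal pattern. The window of GSTA4, a glutathione transferase gene beside RN7SK, held none of the patterns. A match in letters is a description and not a binding site.

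RN7SK and RN7SL1 had peaks in tagged 786-O and in MYC only. RN7SK, the 7SK gene, had rank 4988 in tagged 786-O (top 24.9%, 24.3 to 25.5) and rank 16355 in MYC (81.0%). Its tagged peak, chr6:52859986-52860764, covered the RNA and 432 bp before it, and the MYC peak, chr6:52860413-52860706, lay almost wholly on the RNA. RN7SL1 had rank 5386 in tagged 786-O (26.9%, 26.3 to 27.5) and rank 3457 in MYC (17.1%). There the tagged peak, chr14:50053154-50053647, covered the RNA, whereas the MYC peak, chr14:50052645-50053393, reached 652 bp upstream and covered 32.4% of it. Of that MYC peak 13% lay on the RNA, and RefSeq lists RPS29 as a neighbour of RN7SL1. The nearest parental 786-O peak to RN7SL1 was 12.3 kb away, and the nearest to RN7SK 176.4 kb away. In tagged A498 the nearest peaks were 47.6 kb from RN7SL1 and 418.6 kb from RN7SK. RPPH1 and RN7SL1 are on chromosome 14, which held 0.959% of tagged A498 peaks and 2.66% of tagged 786-O peaks, and 1.22% of parental A498 and 1.10% of parental 786-O peaks. Its part in the missing and low A498 ranks was not tested.

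By rank, the 5 genes with parental peaks stood in 1 order in both 786-O lists. In tagged and parental 786-O it was SNORD3A, RNU11, RNU1-1, RNU2-2P and RPPH1, from highest to lowest. In tagged A498 the order was SNORD3A, RNU1-1, RNU2-2P, RNU11 and RPPH1, and parental A498 differed from that in having RNU1-1 before SNORD3A. RNU11 held the second place in both 786-O lists and the fourth in both A498 lists. In both tagged lists the intervals of neighbours in the order do not overlap. In parental 786-O the intervals of SNORD3A, RNU11, RNU1-1 and RNU2-2P overlap from neighbour to neighbour. So do those of the same genes in parental A498. The intervals do not measure the error of a score, so with 1 library per list none of the orders can be called firm.

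**Figure D3:**
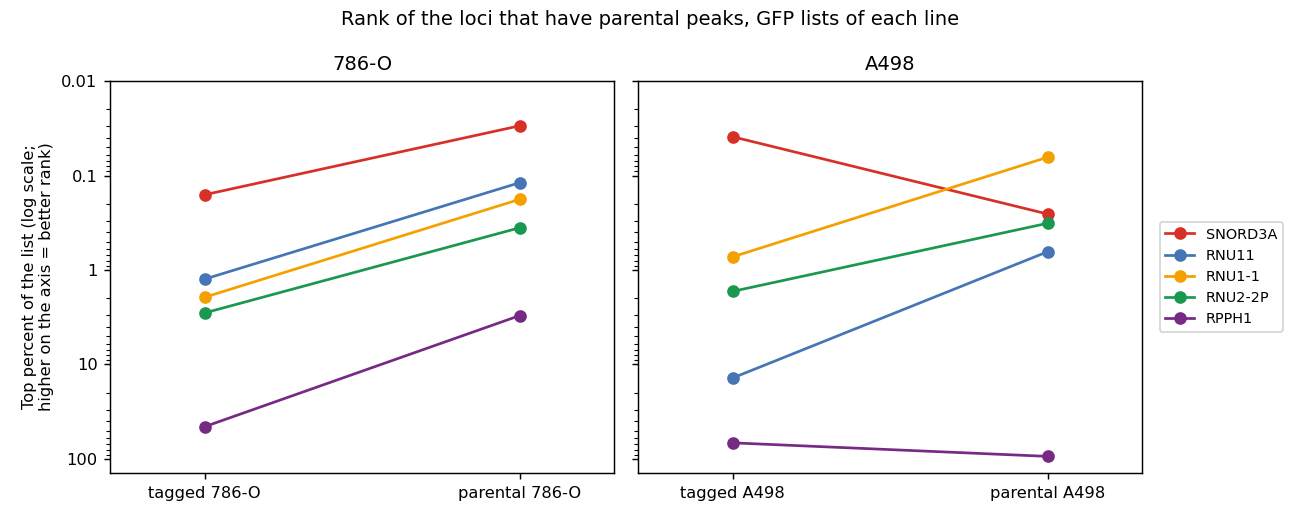
Top percent (log scale, better ranks higher) of the 5 genes that have parental peaks, tagged list left and parental list right, for 786-O and A498, 1 library per list. Lines do not cross in 786-O; in A498 the lines of SNORD3A and RNU1-1 cross, and RNU11 is in the fourth place on both sides.

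Peaks at these 5 genes were shared between tagged and parental cells. In 786-O, 5 of the 9 member peaks of tagged cells, at 5 genes, overlapped a parental peak, against 12.2% of all tagged 786-O peaks. In A498 7 of 10 did, at 4 genes, against 6.93%. The loci were chosen for their parental peaks, so nothing is read from these counts. In 786-O the tagged peak was wider than the parental peak at all 5 genes, by 1.15 to 2.16 times, and covered 97.4% of it at SNORD3A and 100% at the others. In A498 it was narrower at RNU11, RNU1-1 and RNU2-2P, at 0.345, 0.825 and 0.246 times the parental width, and wider at SNORD3A, at 1.47 times. At RPPH1 it was 1.75 times as wide but shared no bases with the parental peak. Over the whole lists the median width was 393 bp in tagged 786-O and 192 bp in parental 786-O. It was 245 bp in tagged A498 and 162 bp in parental A498. Wider tagged peaks are thus a feature of the lists and not of these genes. Of all tagged peaks, 60.6% in 786-O overlapped a MYC peak. Of the member peaks of tagged 786-O 7 of 9 did, the 2 exceptions being SNORD3A and RNU11. Across lines, 7 of the 9 member peaks in tagged 786-O, at 6 genes, overlapped a tagged A498 peak, against 20.5% of that list. Of the parental 786-O member peaks, all 8 overlapped a parental A498 peak, against 21.6% of the list. These 8 peaks lay at 5 genes, so pieces of 1 site are counted more than once. Of the 8, 6 overlapped a tagged 786-O peak, a share close to the 76.2% of the whole list. Of the 5 parental A498 member peaks 4 overlapped a tagged A498 peak, RPPH1 being the exception, against 35.1% of that list.

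The tagged ranks of other strong background peaks are given beside those of these genes as a description. Of the 20 highest parental 786-O peaks 4 were at these genes, and their tagged 786-O peaks lay at 0.160 to 2.85% of the list with a median of 1.60%. The other 16 all had a tagged peak, at 1.63 to 30.6% with a median of 8.90%. In A498 4 of the 20 were again at these genes, with tagged peaks at 0.0389 to 13.9% and a median of 1.21%, and 13 of the other 16 had a tagged peak, at 0.492 to 34.6% with a median of 4.35%. That last median leaves out the peaks with no tagged peak. The 2 sets overlap in range in both lines, and the difference was not tested. The genes were chosen by scores and ranks in these same lists, so nothing is read from the difference. Genes at the other peaks were not looked up. Those peaks may include further small RNA genes and are not a set without them.

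Among 719 parental 786-O peaks outside the windows that overlap a parental A498 peak, the 5 most like the median of the 8 genes were found by the summed absolute difference in log10 top percent over the 5 lists, with no peak counted as 100%. The closest was chr6:160389866-160390198 (sum 0.761), with a top percent of 3.41 in tagged 786-O, 7.64 in tagged A498, 48.6 in MYC, 3.60 in parental 786-O and 66.9 in parental A498. It was followed by chr20:44519766-44520134 (1.04), chr8:128748332-128748736 (1.05), chr16:2570204-2570614 (1.21) and chr1:149857316-149858304 (1.55). They resemble a median that mixes genes with and without parental peaks, and their likeness to any single gene among the 8 was not computed. Genes at these positions were not looked up, since no hg19 annotation was used here.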

How the data were processed

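ChIP-seq peak lists of 5 libraries were used; the 4 input samples served only as the authors' controls. BWA and MACS2 with hg19 are named per the submitters' processing notes, with roles and versions not given in the sources used here. In the deposited files, peak names record merging, sorting and a mapping quality step, and 1 control library for each list. The deposited score was taken to be −log10 of a p-value or q-value, since each list starts just above 2. Scores served only to rank peaks within a list, with ties broken by width and position. Read counts per peak are not in the lists, so the depth behind a peak is unknown; per the labels, libraries were sequenced to 30 to 50 M reads on average.

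Member peaks had an edge within 5 kb of the locus coordinate, and peaks of different lists were shared when they overlapped by at least 1 bp. Named are all 8 genes and the 5 most similar sites. Members, lists and groupings were chosen with earlier results of these data known. With 1 library per group there is no test. Other small RNA genes that had been planned need an hg19 annotation and were not analysed here. RNA lengths, gene neighbours and promoter windows came from RefSeq (GRCh38.p14) and matched all 8 genes by symbol or synonym; no promoter window of the 8 genes themselves was used, and no coordinates were converted. Alternatives covered windows of 2 and 1 kb, chromosomes only, the upper 50% of scores, equal list lengths, rank by width, the nearest peak and other overlap rules. The work used scipy 1.17.1, pandas 2.3.3 and numpy 2.4.6 in Python 3.11.15, with figures from matplotlib 3.10.9. The overlap rule was tested against bedtools 2.31.1 on tagged peaks shifted at random, and the window rule on simulated peaks at known distances.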

Additional observations from a re-analysis of the deposited data

Results flagged for a closer look

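At 2 genes the tagged minus parental difference in top percent had opposite signs in the 2 lines, with 1 library per list and no test of the difference. Since the lists differ in length, neither sign shows a change. For SNORD3A it was 0.13 in 786-O and -0.217 in A498. The intervals of the tagged and parental values overlap in both lines. In A498 the tagged peak had rank 3 and the parental peak rank 4. Rank 1 of the short parental A498 list is already 0.0640%, a larger top percent than the 0.0389% of the tagged A498 peak. No parental rank could thus have given a positive sign in A498. For RPPH1 it was 42.5 in 786-O, where the tagged and parental peaks overlap, and -26.4 in A498, where they are 37 bp apart. RNU11, RNU1-1 and RNU2-2P had the smaller top percent in the parental list in both lines.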

How the results depend on the processing

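With every list limited to its 1563 highest peaks, the number of genes with a peak was 5 in tagged 786-O and 1 in MYC, and peaks in the windows numbered 5 and 1; both follow from the shorter lists. In the upper 50% of scores MYC had 4 peaks in the windows, and the median top percent of the best peaks was 4.79 in tagged 786-O (2.39 as reported) and 28.2 in MYC (32.3 as reported). Ranking by width in place of score gave medians of 8.76 in tagged 786-O, 13.3 in tagged A498, 33.7 in MYC, 1.61 in parental 786-O and 3.775 in parental A498, and the cause was not tested. The MYC median was 57.6 with a 1 kb window and also with the peak nearest to the coordinate, because the strong MYC peak near RNU2-2P lies beyond 1 kb. Tagged A498 member peaks at parental peaks numbered 2 under 50% reciprocal overlap and 3 with midpoints within 200 bp, against 7 as reported; split peaks inside a wide one fail both rules by construction. The other 74 values kept within their limits, which were a factor of 1.5 for counts and the 95% interval for a top percent. Of 176 ranks of single genes 50 moved, 29 of them under ranking by width and 19 in the upper 50%. In the upper 50% a peak keeps its rank while the list shortens. Those 19 moves and the tagged 786-O median of 4.79 were therefore fixed by the setting. No paired analysis was possible because no result comes from a test; tagged and parental values of each line are given side by side. Depth is unknown, so a missing peak may be one below the threshold.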
